A study of Mus musculus with 15 samples.

Results

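The genes described here are the sterol regulatory transcription factors Srebf2 and Srebf1, their retention factor Insig1, and Hmgcs1, Idi1, Fdps, Sqle and Lss, which encode enzymes on the route to cholesterol. They were chosen by name, and every probe whose RefSeq transcript accession belongs to 1 of these 8 genes was taken, which gave 9 probes among the 55681 probes and 20660 named genes of the array. Srebf2 had 2 probes and each other gene had 1, and all 9 were well above background on all 15 arrays. The arrays measured messenger RNA of the whole pancreas of male C57BL/6J mice, 1 array per mouse, in 4 groups. These were 4 transgenic (TG) mice given cerulein, 3 TG mice given saline, 4 wild type (WT) mice given cerulein and 4 WT mice given saline, where the series text gives 4 animals per group. Cerulein, a cholecystokinin analogue that overstimulates acinar cells and causes acute pancreatitis in rodents, was given as 1 intraperitoneal dose of 50 µg/kg in saline. All mice had fasted for 18 h before the injection and were killed 3 h after it. The sample titles, however, call the saline mice sham with a time of 0 h, and give 3 h for the cerulein mice. If the groups did differ in time, this cannot be told apart from cerulein. The series title ties the transgene to betacellulin, an epidermal growth factor receptor ligand, and the labels give neither its promoter nor the age of the mice.

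Cells make cholesterol from acetyl-CoA through the mevalonate pathway. The proteins made from Srebf2 and Srebf1 are held in the membrane of the endoplasmic reticulum by Scap and Insig1 when sterols are plentiful, and are cut in the Golgi when sterols fall, which frees a factor that enters the nucleus. SREBP-2, from Srebf2, acts mainly on genes of sterol synthesis and uptake, and on Srebf2 itself, whereas the SREBP-1c form from Srebf1 acts mainly on fatty acid synthesis. In the exocrine pancreas, membrane lipid is needed for the large rough endoplasmic reticulum and the zymogen granules of acinar cells.

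All levels below are log2 fluorescence intensity minus the 75th percentile of the same array, so that a value of 0 means a probe as bright as that percentile, and levels of different probes are not set against each other. Differences are on the log2 scale, with their standard error (SE) from limma fitted over 42181 probes, and p-values are adjusted by Benjamini-Hochberg over those probes. A gene is called when its adjusted p is below 0.05. The arrays lie on 3 slides, and slide 2 holds only cerulein arrays (1 TG and 2 WT), so each cerulein difference of the 9 probes is also given with slide as a block and within slides 1 and 3. Slide 1 holds 2 TG cerulein, 1 TG saline, 1 WT cerulein and 1 WT saline array, and slide 3 holds 1, 2, 1 and 3 of these. Each cerulein difference within a slide therefore rests on 1 mouse in at least 1 of its groups. The 75th percentile itself was 264.5 to 528.8 intensity units in TG mice given cerulein against 179.0 to 282.8 in TG mice given saline, and 201.2 to 410.0 in WT mice given cerulein against 152.2 to 237.3 in WT mice given saline. It was 380.6 to 528.8 on slide 2. All 17 measured acinar markers were well above background on every array, and their mean level was 8.68 to 9.57 in TG mice given cerulein against 9.39 to 10.05 in TG mice given saline, and 8.82 to 9.97 in WT mice given cerulein against 9.62 to 10.32 in WT mice given saline. The part that these shifts of brightness and of the acinar markers play in the results was not tested, and in bulk tissue fewer cells of a type and less RNA per cell cannot be told apart. The 1 Btc probe did not differ between TG and WT mice (0.49 ± 0.45 after cerulein, adjusted p = 0.83, and 0.55 ± 0.49 after saline, adjusted p = 1.00, limma), and whether it lies in the transcribed part of the transgene is not given, so it does not check the label.

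SREBP proteins are known to bind sterol regulatory elements near the starts of genes, often beside CCAAT boxes bound by NF-Y. The mean levels of Srebf2, Hmgcs1 and Idi1 after cerulein were above those after saline in both genotypes. Without a slide block this difference was called for Srebf2 and not for Hmgcs1 or Idi1. Srebf1 and Insig1 also had higher means in both genotypes, were not called, and have sequences that are not shown. The sequences just before the start of Srebf2, Hmgcs1 and Idi1 are shown as examples. They are the 250 bases up to the start, from RefSeq on GRCm38.p6, 5′ to 3′, on the plus strand at chr15:82147019-82147268, chr13:119690101-119690350 and chr13:8885356-8885605. RefSeq promoter entries matched 6 of the 8 genes, and not Sqle or Fdps. Capitals mark CCAAT or its reverse complement ATTGG, and the letters TCACCCCA, which in Hmgcs1 form part of the longer sterol element TCACNCCAC.
Srebf2: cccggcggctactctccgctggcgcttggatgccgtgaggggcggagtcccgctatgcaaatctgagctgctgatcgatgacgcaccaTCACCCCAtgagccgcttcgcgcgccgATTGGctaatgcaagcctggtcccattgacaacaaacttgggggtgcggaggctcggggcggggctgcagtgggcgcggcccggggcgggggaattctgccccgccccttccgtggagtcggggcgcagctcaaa
Hmgcs1: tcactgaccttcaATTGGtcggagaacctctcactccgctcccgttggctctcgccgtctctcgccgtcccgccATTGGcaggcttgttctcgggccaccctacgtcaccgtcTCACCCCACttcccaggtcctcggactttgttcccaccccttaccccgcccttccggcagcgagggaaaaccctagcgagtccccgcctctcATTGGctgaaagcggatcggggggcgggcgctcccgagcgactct
Idi1: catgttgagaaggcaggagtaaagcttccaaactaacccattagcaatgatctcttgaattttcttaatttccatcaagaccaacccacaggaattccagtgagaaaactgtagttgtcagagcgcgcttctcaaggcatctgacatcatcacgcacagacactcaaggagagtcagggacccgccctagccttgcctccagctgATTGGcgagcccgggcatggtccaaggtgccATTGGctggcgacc
Both strands were searched. The element TCACNCCAC lay 137 to 129 bases before the start of Hmgcs1 and in no other matched window, and 1.05% of 32851 promoter windows of this length hold it. The shorter TCACCCCA, searched after the sequences had been seen, lay at the same place in Hmgcs1 and 162 to 155 bases before the start of Srebf2. It lay in no other matched window, and 1.34% of windows hold it. CCAAT, which 33.8% of windows hold, occurred 3 times in Hmgcs1, 2 times in Idi1 and 1 time in Srebf2. It also occurred in windows of Srebf1, Insig1 and Lss. A match of letters is a description and not a binding site.

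Srebf2 also carries a microRNA, miR-33-5p, which lies within the gene at chr15:82198127-82198147 on the plus strand of GRCm38.p6 and is known to restrain cholesterol export by acting on Abca1 mRNA. It was not analysed here, and its mature RefSeq sequence is shown because Abca1 is described below. Capitals mark the seed, bases 2 to 8.
miR-33-5p: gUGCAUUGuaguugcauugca

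Srebf2 (chromosome 15, 82147269 to 82205379, GRCm38.p6) rose after cerulein in both genotypes, as read by its probe A_51_P377508. The levels in TG mice given cerulein were −0.82, −0.36, 0.13 and −0.54, against −1.95, −1.92 and −1.65 in TG mice given saline. The levels in WT mice given cerulein were −0.77, −0.34, −0.94 and −1.25, against −1.97, −2.13, −2.41 and −1.67 in WT mice given saline. Every cerulein array lay above every saline array of either genotype. The difference was 1.44 ± 0.27 in TG mice, a 2.72-fold rise (adjusted p = 0.0061, limma), and 1.22 ± 0.25 in WT mice, a 2.33-fold rise (adjusted p = 0.0078, limma). With slide as a block it was 1.63 ± 0.23 in TG mice (adjusted p = 0.00060) and 1.49 ± 0.23 in WT mice (adjusted p = 0.0012), and within slides 1 and 3 it was 1.36 and 1.91 in TG mice and 1.20 and 1.73 in WT mice. Scaling by the array median, which left no member called in either genotype, gave adjusted p = 0.059 in TG mice and 0.099 in WT mice (limma), and normexp background correction lowered the difference to 0.82 in TG mice (adjusted p = 0.025) and to 0.54 in WT mice (adjusted p = 0.068). In the order of mean level, TG mice given cerulein (−0.40 ± 0.40, SD, n = 4) came first, then WT mice given cerulein (−0.83 ± 0.38, n = 4), TG mice given saline (−1.84 ± 0.17, n = 3) and WT mice given saline (−2.04 ± 0.31, n = 4). The arrays of the cerulein groups overlapped each other, as did those of the saline groups.

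**Figure D1:**
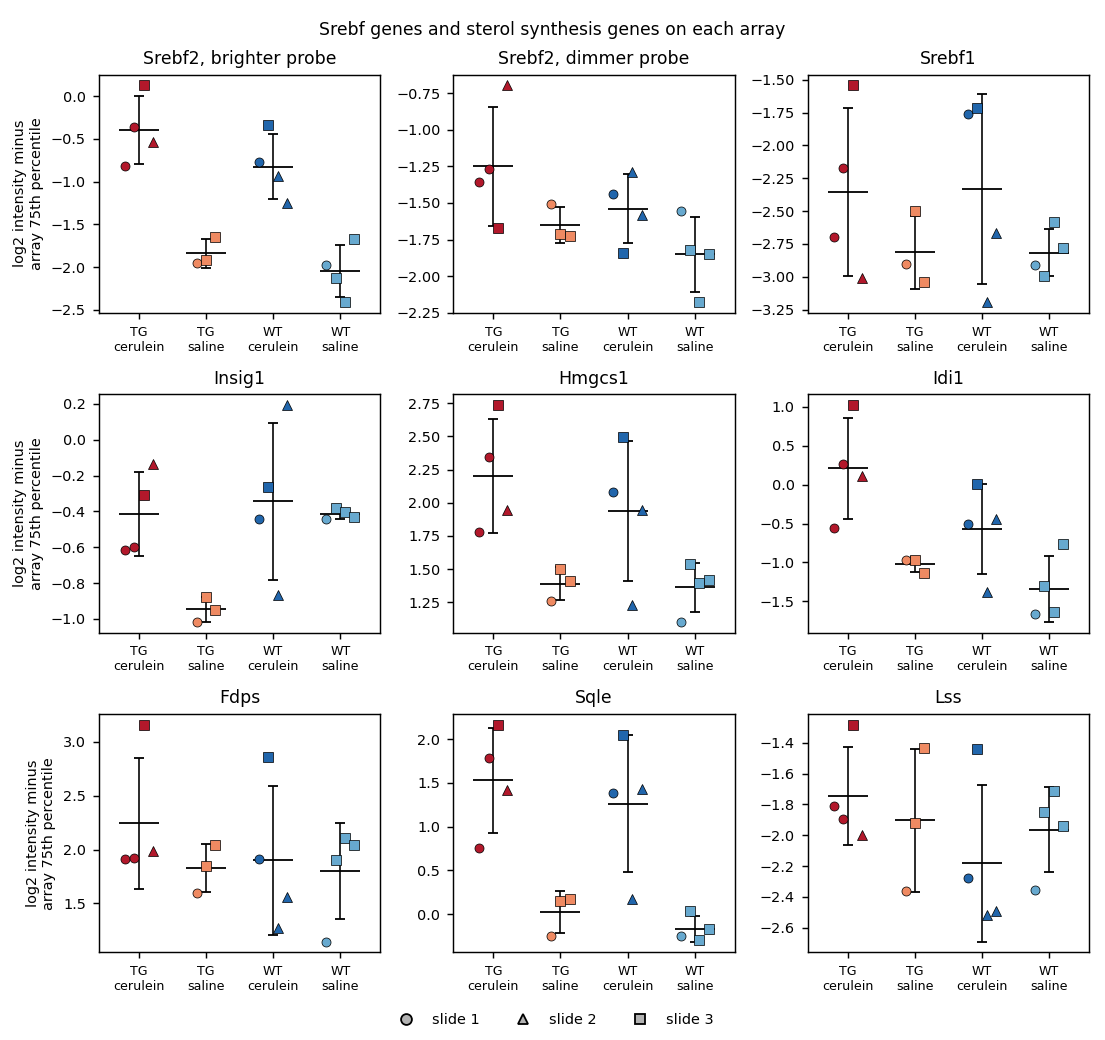
Level of each of the 9 probes on each array, in log2 intensity minus the array's 75th percentile, by group. Points are single mice with the slide as marker, horizontal lines are group means, bars are SD, and each panel has its own vertical scale. For the brighter Srebf2 probe every cerulein array lies above every saline array, and TG cerulein array 15 and WT cerulein array 10, both on slide 3, are the highest of their group in 7 of the 9 panels.

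The other Srebf2 probe, A_55_P2000487, did not pass the test. Its levels in TG mice given cerulein were −1.36, −1.27, −1.67 and −0.70, against −1.51, −1.72 and −1.72 in TG mice given saline. In WT mice they were −1.44, −1.84, −1.29 and −1.58 after cerulein, against −1.56, −1.82, −2.18 and −1.85 after saline. The groups overlapped in both genotypes. The difference was 0.40 ± 0.25 in TG mice (adjusted p = 0.43, limma) and 0.31 ± 0.23 in WT mice (adjusted p = 0.39, limma), and with slide as a block it was 0.19 ± 0.16 and 0.00 ± 0.16 (adjusted p = 0.47 and 0.99). It was 0.19 and 0.0455 within slides 1 and 3 in TG mice, and 0.11 and 0.11 in WT mice. The deposited files give both probes the same transcript accession and no position within it.

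The log2 ratio of probe A_51_P377508 to probe A_55_P2000487 within an array does not change when the whole array is scaled by 1 value. It was 0.54, 0.91, 1.80 and 0.16 in TG mice given cerulein, against −0.44, −0.21 and 0.08 in TG mice given saline. It was 0.67, 1.50, 0.35 and 0.33 in WT mice given cerulein, against −0.42, −0.31, −0.23 and 0.18 in WT mice given saline. All cerulein arrays lay above the saline arrays of the same genotype. The mean ratio differed by 1.04 in TG mice (two-sided exact permutation test over 35 splits, p = 0.057, the smallest it can give) and by 0.91 in WT mice (70 splits, exact p = 0.029, the smallest it can give), and both were 0.057 after adjustment over these 2 tests. Within slides 1 and 3 it differed by 1.16 and 1.87 in TG mice and by 1.08 and 1.62 in WT mice.

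**Figure D2:**
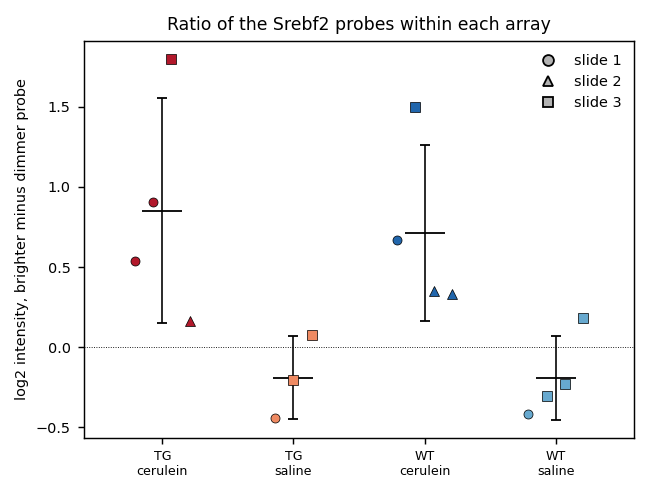
Log2 intensity of Srebf2 probe A_51_P377508 minus that of probe A_55_P2000487 on each array, by group. Points are single mice with the slide as marker, horizontal lines are group means and bars are SD. The lowest cerulein array is at 0.16 in TG mice and 0.33 in WT mice, and the highest saline array is at 0.08 in TG mice and 0.18 in WT mice.

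Srebf1 (chromosome 11, 60199084 to 60224186), which encodes the SREBP-1 proteins, was not called. Its levels were −2.70, −2.17, −1.54 and −3.01 in TG mice given cerulein, against −2.90, −2.50 and −3.04 in TG mice given saline. They were −1.76, −1.71, −3.19 and −2.67 in WT mice given cerulein, against −2.91, −2.99, −2.59 and −2.78 in WT mice given saline. The lowest cerulein array of each genotype lay on slide 2, within the saline range in TG mice and below every saline array in WT mice. The difference was 0.46 ± 0.39 in TG mice (adjusted p = 0.58, limma) and 0.48 ± 0.36 in WT mice (adjusted p = 0.39, limma). Srebf1 passed the test in both genotypes with slide as a block, at 0.82 ± 0.24 in TG mice (adjusted p = 0.037, limma) and 1.10 ± 0.24 in WT mice (adjusted p = 0.010, limma), and within slides 1 and 3 the difference was 0.47 and 1.23 in TG mice and 1.15 and 1.07 in WT mice. After normexp background correction it was −0.068 in TG mice and −0.087 in WT mice.

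Insig1 (chromosome 5, 28071412 to 28078662) encodes the endoplasmic reticulum protein that holds the SREBP escort Scap in place, and its gene is itself a known SREBP target. Its levels were −0.61, −0.60, −0.31 and −0.14 in TG mice given cerulein, against −1.02, −0.88 and −0.95 in TG mice given saline. They were −0.44, −0.26, −0.87 and 0.19 in WT mice given cerulein, against −0.44, −0.38, −0.40 and −0.43 in WT mice given saline. In TG mice the groups did not overlap, whereas the WT cerulein arrays fell on either side of the WT saline arrays. The difference was 0.53 ± 0.24 in TG mice (adjusted p = 0.23, limma) and 0.07 ± 0.22 in WT mice (adjusted p = 0.85, limma), with neither passing the test, and with slide as a block it was 0.54 ± 0.21 and 0.03 ± 0.22 (adjusted p = 0.11 and 0.95). It was 0.41 and 0.61 within slides 1 and 3 in TG mice, and −0.0009 and 0.14 in WT mice. The difference between these responses, TG minus WT, was 0.47 with a 95% interval of −0.22 to 1.15 (adjusted p = 1.00, limma).

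Sqle (chromosome 15, 59315092 to 59331193) encodes squalene epoxidase, the first oxygen-using step of sterol synthesis, and was called in both genotypes. Its levels were 0.76, 1.78, 2.16 and 1.42 in TG mice given cerulein, against −0.25, 0.15 and 0.18 in TG mice given saline. They were 1.39, 2.05, 0.18 and 1.43 in WT mice given cerulein, against −0.25, 0.04, −0.29 and −0.16 in WT mice given saline. The groups did not overlap within a genotype, although WT cerulein array 11, on slide 2, lay close to the saline arrays. The rise was 1.50 ± 0.39 in TG mice, 2.84-fold (adjusted p = 0.035, limma), and 1.43 ± 0.36 in WT mice, 2.69-fold (adjusted p = 0.023, limma). In the fit with slide as a block it was 1.81 ± 0.34 in TG mice (adjusted p = 0.0036) and 1.87 ± 0.34 in WT mice (adjusted p = 0.0034), and within slides 1 and 3 it was 1.52 and 2.0 in TG mice and 1.64 and 2.19 in WT mice. The call was lost in TG mice in 7 of 15 fits that left out 1 array (TG cerulein 14, 15 or 16, TG saline 2, 3 or 4, or WT saline 6), with differences of 1.29 to 1.58 in those fits and adjusted p up to 0.11. In WT mice it was lost in 4 of 15 such fits (WT cerulein 9 or 12, or WT saline 7 or 8), with differences of 1.37 to 1.43 and adjusted p up to 0.069, and array-median scaling and fits to the compared arrays alone also ended it in both genotypes.

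Hmgcs1 (chromosome 13, 119690351 to 119708260) encodes the cytosolic synthase that forms HMG-CoA, an early intermediate of the mevalonate pathway. Its levels were 1.78, 2.34, 2.74 and 1.95 in TG mice given cerulein, against 1.26, 1.50 and 1.41 in TG mice given saline. They were 2.08, 2.50, 1.23 and 1.94 in WT mice given cerulein, against 1.10, 1.54, 1.39 and 1.42 in WT mice given saline. The TG groups did not overlap, and in WT mice cerulein array 11 alone lay within the saline range. The difference was 0.81 ± 0.29 in TG mice (adjusted p = 0.14, limma) and 0.57 ± 0.27 in WT mice (adjusted p = 0.20, limma), not called in either. It passed with slide as a block, at 1.07 ± 0.20 in TG mice (adjusted p = 0.0037, limma) and 0.97 ± 0.20 in WT mice (adjusted p = 0.0081, limma), and within slides 1 and 3 it was 0.80 and 1.28 in TG mice and 0.97 and 1.05 in WT mice.

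Idi1 (chromosome 13, 8885606 to 8892396) encodes isopentenyl-diphosphate isomerase, which makes the starter unit of isoprenoid chains. Its levels were −0.56, 0.27, 1.02 and 0.11 in TG mice given cerulein, against −0.97, −0.97 and −1.14 in TG mice given saline. They were −0.50, 0.01, −1.37 and −0.44 in WT mice given cerulein, against −1.66, −1.30, −1.64 and −0.76 in WT mice given saline. The TG groups did not overlap, and WT cerulein array 11 again lay among the saline arrays. The difference was 1.23 ± 0.37 in TG mice (adjusted p = 0.071, limma) and 0.76 ± 0.35 in WT mice (adjusted p = 0.18, limma). With slide as a block it passed, at 1.50 ± 0.34 in TG mice (adjusted p = 0.010, limma) and 1.13 ± 0.34 in WT mice (adjusted p = 0.048, limma), and within slides 1 and 3 it was 0.82 and 2.07 in TG mice and 1.16 and 1.24 in WT mice. Without TG cerulein array 13 the TG difference was 1.49 (adjusted p = 0.031), and without WT cerulein array 11 its adjusted p was 0.047.

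Fdps (chromosome 3, 89093588 to 89101967) encodes farnesyl diphosphate synthase, at the branch between sterols and other isoprenoids, and Lss (chromosome 10, 76531565 to 76557139) encodes lanosterol synthase, which closes the sterol rings. Fdps levels were 1.91, 1.92, 3.16 and 1.99 in TG mice given cerulein, against 1.59, 1.85 and 2.04 in TG mice given saline, and 1.92, 2.86, 1.27 and 1.56 in WT mice given cerulein, against 1.14, 1.90, 2.11 and 2.04 in WT mice given saline. Lss levels were −1.81, −1.90, −1.28 and −2.0 in TG mice given cerulein, against −2.36, −1.92 and −1.43 in TG mice given saline, and −2.28, −1.44, −2.52 and −2.49 in WT mice given cerulein, against −2.36, −1.85, −1.72 and −1.94 in WT mice given saline. The groups overlapped for both genes in both genotypes. Fdps differed by 0.42 ± 0.40 in TG mice (adjusted p = 0.63, limma) and 0.10 ± 0.37 in WT mice (adjusted p = 0.87, limma), and with slide as a block by 0.86 ± 0.19 (adjusted p = 0.0092) and 0.70 ± 0.19 (adjusted p = 0.030), which passed. Within slides 1 and 3 the Fdps difference was 0.32 and 1.22 in TG mice and 0.77 and 0.84 in WT mice. Lss differed by 0.16 ± 0.31 in TG mice (adjusted p = 0.83, limma) and −0.22 ± 0.29 in WT mice (adjusted p = 0.63, limma). With slide as a block the Lss difference was 0.48 ± 0.14 in TG mice (adjusted p = 0.039), which passed, and 0.22 ± 0.14 in WT mice (adjusted p = 0.37), which did not and had turned sign. Within slides 1 and 3 it was 0.51 and 0.39 in TG mice and 0.08 and 0.40 in WT mice.

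**Figure D3:**
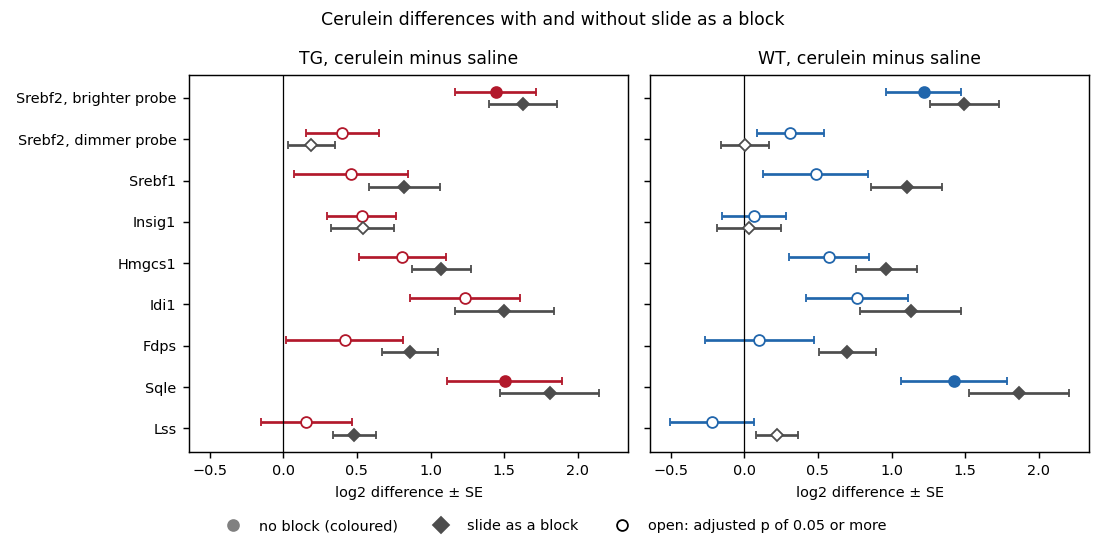
Cerulein minus saline difference (log2 ± SE) of the 9 probes in TG mice (left) and WT mice (right). Coloured circles are the fit without a block and grey diamonds the fit with slide as a block, and open symbols have an adjusted p of 0.05 or more. Without the block Srebf2 (brighter probe) and Sqle pass in both genotypes, and with it 7 of the 8 genes pass in TG mice and 6 of 8 in WT mice. These counts read Srebf2 from its brighter probe, and its dimmer probe passes in neither genotype in either fit.

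Of the 8 genes, each read from its brighter probe, 2 were called higher after cerulein in TG mice and 2 in WT mice, and none was called lower. Srebf2 probe A_51_P377508 is the brighter one over the 15 arrays only through the cerulein arrays, since its mean log2 ratio to the other probe was 0.85 and 0.71 in TG and WT mice given cerulein, against −0.19 in saline mice of each genotype. Read from the other probe, Srebf2 was not called and the count was 1 in each genotype. Of all 17338 genes measured, 4.29% were called higher in TG mice and 4.86% in WT mice. With slide as a block the count was 7 of 8 in TG mice, where 14% of all genes were called higher, and 6 of 8 in WT mice, where 12.3% were. All cerulein arrays lay above all saline arrays for 5 of 8 genes in TG mice, as for 9.95% of all genes, and for 2 of 8 in WT mice, as for 7.35% of all genes. The median difference over the 8 genes was 0.67 in TG mice and 0.53 in WT mice, against −0.06 over all genes in each genotype. These block counts, array counts and medians also read Srebf2 from its brighter probe. The other probe did not pass with slide as a block (adjusted p = 0.47 in TG and 0.99 in WT mice, limma). Its arrays overlapped in both genotypes, so each count includes Srebf2 only through the choice of probe. Within the cerulein groups the arrays differed together: TG array 15 was the highest of its group for 7 of 9 probes and array 13 the lowest for 6, and WT array 10 was the highest for 7 and array 11 the lowest for 7. How often these arrays are highest or lowest over all probes was not counted, so this need not be particular to these genes. TG array 15 and WT array 10 are the only cerulein arrays on slide 3. Their 75th percentiles, 264.5 and 201.2 intensity units, were the lowest of their groups. The differences within slide 3 rest on these arrays, and the fit with slide as a block leans on them too.

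The genotypes were compared within each treatment. None of the 8 genes was called between TG and WT mice after cerulein (limma), where 1 of the 8 had an unadjusted p below 0.05, as had 6.71% of all genes, and 0.0923% of all genes were called. None was called after saline (limma), where 1 of the 8 had an unadjusted p below 0.05, as had 3.05% of all genes, and 0.0461% of all genes were called. After cerulein that gene was Idi1, higher by 0.78 ± 0.35 in TG mice (adjusted p = 0.71, limma), with overlapping arrays. After saline it was Insig1, lower in TG mice by −0.53 ± 0.24 (adjusted p = 1.00, limma), with levels of −1.02, −0.88 and −0.95 in TG mice against −0.44, −0.38, −0.40 and −0.43 in WT mice. All TG saline arrays lay below all WT saline arrays for Insig1, as for 2.21% of all genes, and within slides 1 and 3 the difference was −0.58 and −0.51. The difference between the cerulein responses, TG minus WT, was called for 0 of 8 genes (limma), with 0 at an unadjusted p below 0.05, and 0% of all genes called (123 of 17338 had an unadjusted p below 0.05). For Srebf2 the TG response exceeded the WT response by 0.22, with a 95% interval of −0.58 to 1.03, and for Sqle by 0.08, with a 95% interval of −1.06 to 1.21.

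Calls along the wider route of sterol synthesis ran in both directions. Of 20 enzymes and pathway proteins listed, 3 were called higher and 1 lower after cerulein in TG mice, and 3 higher and 3 lower in WT mice, against 4.29% higher and 2.72% lower of all genes in TG mice and 4.86% higher and 6.36% lower in WT mice. With slide as a block 8 were higher and 1 lower in TG mice, and 7 higher and 2 lower in WT mice. In that fit 14% of all genes were higher and 6.94% lower in TG mice, and 12.3% and 6.09% in WT mice. Members such as Sqle belong to this list too, so its counts overlap with those of the 8 genes. The list median was 0.14 in TG mice and 0.11 in WT mice. Those called higher in both genotypes were Sqle, Cyp51 and Msmo1. Cyp51 passed the background filter only through its cerulein arrays, so that its part in these counts is no support for them.

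Msmo1, the methylsterol oxidase that starts the removal of the methyl groups at carbon 4 of the sterol ring, rose by 2.19 ± 0.39 in TG mice, 4.57-fold (adjusted p = 0.0040, limma), and by 1.88 ± 0.36 in WT mice, 3.69-fold (adjusted p = 0.0046, limma). Within slides 1 and 3 it differed by 2.29 and 2.87 in TG mice and by 2.21 and 2.65 in WT mice. It was called under each of the 10 other settings and in each fit that left out 1 array. Cyp51, the lanosterol demethylase, was above background on 4 of 4 cerulein arrays of each genotype, against 1 of 3 TG saline and 1 of 4 WT saline arrays, so its differences rest in part on saline signals not above background. They were 1.67 ± 0.40 in TG mice (adjusted p = 0.023, limma) and 1.62 ± 0.37 in WT mice (adjusted p = 0.013, limma), and within slides 1 and 3 they were 0.89 and 2.64 in TG mice and 1.61 and 2.21 in WT mice. The Cyp51 call was lost in TG mice without TG cerulein 15 or TG saline 3 or 4, and in WT mice without WT saline 7. It was kept under 5 of 9 other settings in each genotype: the array median and the fit without slide 2 ended it in both, the compared arrays alone in TG mice, quantile normalisation in WT mice, and normexp in both, with differences of 0.14 in TG mice and −0.10 in WT mice. Erg28, a scaffold protein for the enzymes that demethylate carbon 4 in yeast, fell by 0.93 in TG mice (adjusted p = 0.019, limma) and by 1.17 in WT mice (adjusted p = 0.0019, limma), and its TG call was lost without TG cerulein 14 or TG saline 3 or 4, with the array median and with the compared arrays alone. Within slides 1 and 3 Erg28 differed by −0.72 and −0.76 in TG mice and by −0.99 and −1.19 in WT mice. Nsdhl, the dehydrogenase that acts after Msmo1, and Tm7sf2, a sterol reductase, are named after their values were seen as the other WT genes called lower, at −0.93 (adjusted p = 0.027, limma) and −0.71 (adjusted p = 0.049, limma), and Nsdhl did not pass with slide as a block (adjusted p = 0.059), while Tm7sf2 was called in 4 of 15 fits that left out 1 array.

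**Figure D4:**
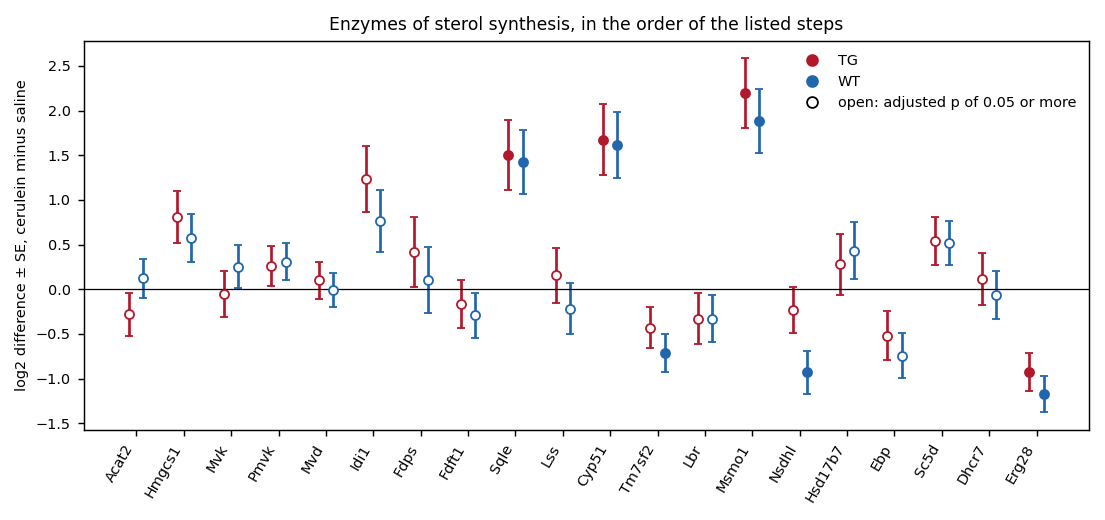
Cerulein minus saline difference (log2 ± SE) of 20 listed sterol synthesis genes, in the order of the listed steps with the scaffold Erg28 last, in TG mice (red) and WT mice (blue). Filled points have an adjusted p below 0.05. Sqle, Cyp51 and Msmo1 stand between 1.43 and 2.19, whereas Mvk, Pmvk, Mvd, Fdft1 and Dhcr7 lie between −0.29 and 0.31 and Erg28 lies at −0.93 in TG mice and −1.17 in WT mice.

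Of 14 measured genes of sterol uptake and transport, none was called in TG mice (limma, 2 at an unadjusted p below 0.05), and 1 was called lower in WT mice. These counts were 2 higher and 1 lower in TG mice, and 2 higher and 0 lower in WT mice, with slide as a block. In that fit 14% of all genes were called higher and 6.94% lower in TG mice, and 12.3% and 6.09% in WT mice. Without the block these shares were 4.29% and 2.72% in TG mice and 4.86% and 6.36% in WT mice. An unadjusted p below 0.05 without the block was found for 21.3% of all genes in TG mice and 30.3% in WT mice (limma). The same shares apply to the list counts below. Mylip, a ubiquitin ligase that limits lipoprotein uptake, differed by −1.10 ± 0.33 in TG mice (adjusted p = 0.070, limma) and was called lower in WT mice, at −1.09 ± 0.31 (adjusted p = 0.040, limma). With slide as a block this turned to adjusted p = 0.048 in TG mice and 0.12 in WT mice.

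Of 14 genes of SREBP activation and sterol sensing, which include Srebf2, Srebf1 and Insig1, 1 was called higher in TG mice, and 1 higher and 2 lower in WT mice, where 6.36% of all genes were lower. In the fit with slide as a block 3 were higher and 1 lower in TG mice, and 2 higher and 2 lower in WT mice. The gene called higher without the block was Srebf2 in both genotypes, and all of these counts read it from its brighter probe. Those lower in WT mice were Erlin2, an endoplasmic reticulum protein that takes part in sterol-regulated protein degradation, and Marchf6, the ubiquitin ligase that degrades squalene epoxidase. Erlin2 differed by −0.75 ± 0.23 in TG mice (adjusted p = 0.071, limma) and −0.84 ± 0.21 in WT mice (adjusted p = 0.023, limma). Marchf6 differed by −0.44 ± 0.24 in TG mice (adjusted p = 0.35, limma) and −0.82 ± 0.22 in WT mice (adjusted p = 0.029, limma). Both WT calls were kept with slide as a block (adjusted p = 0.035 for Erlin2 and 0.032 for Marchf6), a fit in which Erlin2 also passed in TG mice (adjusted p = 0.035). They were lost with the array median, with the compared arrays alone, without slide 2, and without WT cerulein 9 or 12 or WT saline 6, 7 or 8. Of 14 genes of sterol export, esterification and the LXR receptors, none was called in TG mice (limma, 5 at an unadjusted p below 0.05), and 2 higher and 1 lower in WT mice, against 4.86% higher and 6.36% lower of all genes. With slide as a block none of this list was called in TG mice, and 2 were higher and 0 lower in WT mice. Soat2, which esterifies cholesterol, differed by 1.06 ± 0.39 in TG mice (adjusted p = 0.14, limma) and rose by 1.82 ± 0.36 in WT mice (adjusted p = 0.0058, limma). Ch25h, which makes 25-hydroxycholesterol, differed by 1.37 ± 0.46 in TG mice (adjusted p = 0.10, limma) and rose by 1.80 ± 0.42 in WT mice (adjusted p = 0.016, limma), where it was above background on 4 of 4 cerulein and 1 of 4 saline arrays, and its WT difference was 0.13 after normexp background correction (adjusted p = 0.62). Abca1, the cholesterol exporter, differed by −1.07 ± 0.32 in TG mice (adjusted p = 0.066, limma) and was called lower in WT mice at −1.08 ± 0.29 (adjusted p = 0.034, limma), and with slide as a block it passed in neither (adjusted p = 0.066 in TG and 0.087 in WT mice). Soat2 kept its WT call under each other setting and in each fit that left out 1 array, whereas that of Ch25h was also lost without slide 2, and that of Abca1 under the same settings and without the same arrays as Erlin2.

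Of 17 fatty acid synthesis genes, none was called higher in either genotype (2 in TG mice and 1 in WT mice were higher at an unadjusted p below 0.05), and 3 were called lower in WT mice (limma): the desaturases Scd2, at −1.24 ± 0.35 (adjusted p = 0.039), and Fads1, at −0.87 ± 0.24 (adjusted p = 0.037), and the lipogenic regulator Thrsp, at −0.96 ± 0.26 (adjusted p = 0.036). None of these 3 passed with slide as a block (adjusted p = 0.13, 0.069 and 0.065), a fit in which 2 other genes of the list were called higher in each genotype, against 14% of all genes in TG mice and 12.3% in WT mice. Scd2, Fads1, Thrsp and Mylip kept their WT calls in 7 or 8 of 15 fits that left out 1 array, and lost them with the compared arrays alone and without slide 2. The list median was −0.17 in TG mice and 0.01 in WT mice. Of 10 genes of the other isoprenoid branches (prenylation, dolichol and ubiquinone), none was called in either genotype (limma, 1 in TG mice and 2 in WT mice at an unadjusted p below 0.05). With slide as a block 2 were called higher in TG mice and 1 in WT mice, against 14% and 12.3% of all genes.

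Markers of other cells moved beside these genes in part. Of 6 measured neutrophil markers, S100a8 and S100a9 were called higher in WT mice and none in TG mice (limma, 0 at an unadjusted p below 0.05), and the mean level of the 6 was −0.36 to 0.59 in TG mice given cerulein against −0.61 to 0.57 in TG mice given saline, and −1.26 to 0.05 in WT mice given cerulein against −2.25 to −0.80 in WT mice given saline. For both genes the WT cerulein and saline arrays overlapped. After saline S100a8 and S100a9 were 3.38 ± 0.75 and 3.90 ± 0.78 higher in TG than in WT mice, not called (adjusted p = 0.49 and 0.30, limma). Of the 6 markers 2 were well above background on every WT saline array, and S100a8 and S100a9 were not among them. Their WT rise and this gap thus rest in part on WT saline signals not well above background. The difference between the cerulein responses, TG minus WT, was not called for either gene. The WT call of S100a8 was kept in 3 of 15 fits that left out 1 array and that of S100a9 in 12. Of 9 macrophage markers Cd14 was called higher in both genotypes, in each such fit. With slide as a block 2 macrophage markers were called higher in TG mice and 1 in WT mice, and 2 neutrophil markers in WT mice. None of either list was called lower in that fit, where 14% of all genes in TG mice and 12.3% in WT mice were higher.

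Of 10 duct markers, 2 were called higher and 2 lower in TG mice, and 3 higher and 1 lower in WT mice. Of all genes 4.29% were called higher and 2.72% lower in TG mice, and 4.86% and 6.36% in WT mice. With slide as a block 4 duct markers were higher and 2 lower in TG mice, and 4 higher and 1 lower in WT mice. In that fit 14% of all genes were higher and 6.94% lower in TG mice, and 12.3% and 6.09% in WT mice. Krt8 and Krt18, keratins of simple epithelia, rose by 4.27 and 1.71 in TG mice (adjusted p = 2.21e-05 and 0.0091, limma) and by 4.21 and 1.70 in WT mice (adjusted p = 9.00e-06 and 0.0040, limma). Epcam, an epithelial adhesion molecule, rose by 1.14 in WT mice (adjusted p = 0.017, limma) and differed by 0.72 in TG mice (adjusted p = 0.19). Sox9, a transcription factor of duct and progenitor cells, differed by −1.27 in TG mice (adjusted p = 0.049, limma) and −1.68 in WT mice (adjusted p = 0.0051, limma), and its TG call was kept in 4 of 15 fits that left out 1 array. Onecut1, a transcription factor of duct development, was not well above background on any cerulein array of either genotype. Its measured difference was −2.61 in TG mice (adjusted p = 0.013, limma), which was called, and −1.70 in WT mice (adjusted p = 0.056, limma). It was at least 2.26-fold lower after cerulein in TG mice and 1.71-fold in WT mice. These bounds are set against the lowest signal well above background on each array. The TG call of Onecut1 was lost without TG saline 3 or 4 and after normexp.

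Among 17 acinar markers 1 was called higher and 1 lower in TG mice, and 1 higher and 2 lower in WT mice. At an unadjusted p below 0.05 there were 11 in TG mice and 17 in WT mice, of which 1 in each genotype was higher. Of all genes 21.3% in TG mice and 30.3% in WT mice had such a p. The median of the acinar list was −0.71 in TG mice and −0.79 in WT mice. With slide as a block 1 acinar marker was called higher and 4 lower in TG mice, and 1 higher and 2 lower in WT mice. In that fit 14% of all genes were higher and 6.94% lower in TG mice, and 12.3% and 6.09% in WT mice. Ptf1a, a transcription factor of acinar cells, rose by 1.68 in TG mice (adjusted p = 0.012, limma) and by 1.17 in WT mice (adjusted p = 0.040, limma), a WT call kept in 7 of 15 fits that left out 1 array. Rbpjl, which encodes its partner in the acinar transcription complex, fell by 1.73 in TG mice (adjusted p = 0.0038, limma) and by 1.81 in WT mice (adjusted p = 0.0011, limma), under every setting run. Rnase1, the pancreatic ribonuclease, was lower by −1.21 in WT mice (adjusted p = 0.016, limma) and differed by −0.88 in TG mice (adjusted p = 0.12), and its WT call was lost without WT cerulein 11 or WT saline 6 or 7.

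No marker of adipocytes, fibroblasts and stellate cells, endothelium, lymphocytes, hepatocytes, erythrocytes or islets was called in the cerulein comparisons (limma). Of these 65 markers, 6 in TG mice and 11 in WT mice had an unadjusted p below 0.05, all lower. The shares of all genes with such a p, in either direction, were 21.3% and 30.3%. In the fit with slide as a block 1 adipocyte marker was called lower in each genotype, and 2 lymphocyte markers and 1 hepatocyte marker in TG mice. Between the genotypes, Alb, the hepatocyte albumin gene, was 5.18 ± 0.53 higher in TG than in WT mice after cerulein (adjusted p = 0.0010, limma) and 5.29 ± 0.57 higher after saline (adjusted p = 0.0016, limma), and Lum, a collagen-binding proteoglycan of fibroblasts, was 2.54 ± 0.39 higher after cerulein (adjusted p = 0.028, limma, kept in 7 of 15 fits that left out 1 array). After saline Lum was 1.71 ± 0.42 higher, with every TG array above every WT array, and was not called (adjusted p = 0.84, limma). Over the 10 fibroblast and stellate markers the median TG minus WT difference was 1.36 after cerulein and 0.86 after saline. Over all genes it was 0.10 and 0.004. Of 10 hepatocyte markers Alb alone was called between the genotypes. The median TG minus WT difference over these 10 was −0.11 after cerulein and 0.07 after saline. The part of these markers in the sterol results was not tested.

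The 5 genes whose pattern over the 15 arrays was nearest to that of Srebf2 probe A_51_P377508 were Htt, Il6st, Osmr, Kctd10 and Tagln2, among 17309 genes. The measure is the root mean square difference, in log2 units, after each gene was centred on its own mean. It was 0.14 for Htt, the huntingtin gene, 0.16 for Il6st, the shared signalling chain of interleukin 6 family receptors, 0.19 for Osmr, the oncostatin M receptor, and 0.21 each for Kctd10 and Tagln2. Srebf2 itself had a standard deviation of 0.78 over the 15 arrays. The other genes of the sterol set lay farther away than these. Idi1 at 0.37, Sqle at 0.37 and Hmgcs1 at 0.43 ranked 369, 391 and 677 of 17316 genes, a number that counts the sterol set. Srebf1, Fdps, Insig1 and Lss lay between 0.60 and 0.75, at ranks of 1891 to 3808. The 15 arrays share the treatment, the slides and the scaling, so this likeness is a description.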

How the data were processed

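Total RNA of 15 pancreases was labelled with Cy3 and hybridised to 1-colour Agilent arrays. The intensity of each spot was deposited as scanner output that, per the file headers, the authors made with Agilent Feature Extraction (version 10.7.3.1), which corrects background within an array and not between arrays. The flag columns (unit other: 0 or 1 per spot) are deposited beside it. A series table of log2 values deposited by the authors, whose normalisation is not given in the sources used here, was used only as an alternative: its columns correlate with log2 intensity at r of 0.987 to 0.998 and have medians of 6.56 to 6.93, so the scale is log2, without centring per gene, while the offset between arrays stays unknown.

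Spots of a probe were averaged, outlier spots left out, and log2 intensity was centred on the 75th percentile of its array. Probes well above background on at least 3 of 15 arrays were kept (42181 probes, 17338 genes). The files name probes by accession, matched to RefSeq without version. limma 3.58.1 in R 4.3.3 fitted 4 group means without a covariate (11 residual and 3.26 prior degrees of freedom, two-sided, Benjamini-Hochberg over probes within each of 5 comparisons), and a gene was read from its brightest probe. Each array is 1 mouse, and the number of arrays limits the precision. The members, lists and tests were chosen with earlier results of these data known. Named are all members, the called genes of each other list where there are 5 or fewer in a comparison (otherwise the 3 with the largest difference), and the 5 genes nearest to Srebf2. Genes of the other lists called only in the fit with slide as a block are counted for the cerulein comparisons and are not named for that alone. The other settings are given in the closing section. Normexp (offset 50) used the median spot signal and the background median. Promoter and microRNA sequences are from RefSeq, GRCm38.p6. Some genes of the sterol lists are not reported here and are left out of the list counts.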

Additional observations from a re-analysis of the deposited data

Results flagged for a closer look

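The level of Fdps in TG cerulein mouse 15 was 3.16, against 1.91 to 1.99 in the other 3 TG mice given cerulein. The gap to the nearest of these, 1.99, was 0.938 of the range of the group, past Dixon's critical value for 4 samples. It was the only such value among 27 groups of 4 arrays looked at, and chance marks about 1 in 20 groups. The same array was the highest of its group for 7 of the 9 probes.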

How the results depend on the processing

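Of the 8 genes, 2 were called after cerulein in TG mice and 2 in WT mice. The count in TG mice was 0 with the array median in place of the 75th percentile, 1 in a fit to the compared arrays alone, 1 when Srebf2 was read from its dimmer probe, 4 in the authors' deposited series table and 7 with slide as a block. In WT mice it was 0 with the array median, 1 each with normexp, with the compared arrays alone and with the dimmer Srebf2 probe, and 6 with slide as a block. The counts with slide as a block read Srebf2 from its brighter probe, and the dimmer probe did not pass in that fit. The other settings (normexp in TG mice, quantile normalisation, no filter on dim probes, only probes well above background on all 15 arrays, 1 probe per gene, no slide 2 and, in WT mice, the series table) gave 2 or 3 in TG mice and 2 in WT mice. Leaving out 1 array gave 1 to 3 in TG mice and 1 to 2 in WT mice, and it gave 0 to 0 in both TG against WT comparisons and in the difference between the responses, which stayed at 0 under every setting run. The difference between the responses uses all 4 groups, so a fit to the compared arrays alone gives no other value for it. Why the count moves with these settings was not tested. Over all genes, calls were 744 higher and 472 lower in TG mice and 843 higher and 1102 lower in WT mice. They were 915 and 885 in TG mice and 856 and 1924 in WT mice with normexp, 339 and 139 in TG mice with the array median, and 2425 and 1204 in TG mice and 2138 and 1056 in WT mice with slide as a block. The median of all genes moved to −0.20 in TG mice and −0.23 in WT mice with normexp, and to −0.25 in WT mice with the array median.

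Of 41 called differences of single genes that were followed, 18 stayed called in each of the 15 fits that left out 1 array and 12 under each other setting. Those of Erlin2, Marchf6, Mylip, Abca1, Nsdhl, Tm7sf2, Scd2, Fads1 and Thrsp in WT mice stayed called in 4 to 10 of those 15 fits.

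Signs turned for the differences below, of which that of Cyp51 in WT mice (1.62) was called. With normexp, Srebf1 was −0.068 (TG) and −0.087 (WT), Lss −0.15 (TG) and Cyp51 −0.10 (WT). With the array median, Insig1 was −0.12 and Fdps −0.089 in WT mice. In WT mice Lss was 0.22 with slide as a block and 0.11 without slide 2. Leaving out 1 array gave −0.11 for Insig1 in WT mice (without WT cerulein 12; highest 0.242), −0.22 and −0.12 for Fdps in WT mice (without WT cerulein 10 and without WT saline 5; highest 0.313) and −0.072 for Lss in TG mice (without TG saline 2; highest 0.391). The TG minus WT difference of the Sqle responses was −0.056 with slide as a block, −0.34 without slide 2, and −0.28, −0.13, −0.06 and −0.01 without WT cerulein 11, TG cerulein 15, TG saline 2 and TG cerulein 14, with a highest value of 0.340. No paired analysis was possible because the groups share no replicate numbers. Slide 2 holds no saline array, and Cyp51 was above background on 1 of 3 TG saline and 1 of 4 WT saline arrays, which limits those comparisons.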
